A study of Homo sapiens with 6 samples.

Results

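The genes described here encode 10 proteins that bundle actin filaments or link or sever them: the plastins *LCP1*, *PLS1* and *PLS3*, the crosslinkers *FSCN1*, *ACTN1* and *ACTN4*, the membrane linkers *EZR* and *MSN*, the microvillus protein *VIL1* and the severing factor *CFL1*. They were taken from the deposited table by symbol and are 10 of its 20381 genes. The list was selected with differences between PON1-OE and NC in these same libraries already known, so the differences of the 10 genes are described with their standard errors (SE) and 95% intervals and without p-values. All 10 passed the filter on low counts, which kept 11958 genes.

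RNA-seq of poly(A) RNA was done on HCCLM3, an established line from a human hepatocellular carcinoma with high metastatic capacity. PON1 encodes paraoxonase 1, an esterase and lactonase that the liver secretes and that circulates on high-density lipoprotein. The PON1-OE cells carried a lentivirus that overexpressed PON1, and the NC (negative control) cells carried the empty vector lentivirus, so that both groups were transduced and neither was the parental line. There were 3 libraries in each group. Whether the 3 were separate cultures, and whether the lines were clones or pools, is not given in the sources used here, so the spread between libraries may be technical. The text of the series gives RPMI-1640 with 15% serum and lysis 24 h after transfection, whereas its title describes stably transduced cells. The study's methods also give a lower serum content for its cell lines. Library totals were 15706664 to 17948372 counts, and 3 counts equalled 0.166 to 0.192 CPM, the count scaled to the TMM-corrected library total. *PON1* had 0, 2 and 3 counts in the NC libraries and 155, 181 and 167 in the PON1-OE libraries, in the direction of the labels. Of 16 hepatocyte and hepatocellular carcinoma markers, 10 passed the filter on low counts. *KRT8* averaged 2410 CPM in NC, whereas *ALB* averaged 0.578 CPM and *APOC3* and *GPC3* had no counts in any library.

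Actin filaments are polar polymers that cells gather into bundles, meshes and cables. Plastins, also called fimbrins, hold filaments in tight parallel bundles through paired actin-binding domains, and fascin packs them in filopodia. The α-actinins are antiparallel dimers that space filaments more widely, in stress fibres and at adhesions. Ezrin and moesin, with radixin, tie the filament cortex to membrane proteins once they have been phosphorylated. Villin bundles or severs filaments depending on calcium and is typical of microvilli, including those of the bile canaliculus. Cofilin severs old filaments and so returns monomers for new growth. L-plastin, the product of *LCP1*, is typical of blood cells and is also made by many carcinoma cells, while *PLS1* is typical of gut and kidney epithelium and *PLS3* of most solid tissues.

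The sequences around the starts of the plastin genes are shown as a description of the 3 paralogs. The highest library over the lowest was 2.35 for *LCP1* and 1.03 for *PLS3*, the extremes among the 10 members. This ratio spans both groups, and *LCP1* had 115 to 256 counts a library against 5308 to 5949 for *PLS3*. A link between sequence and spread was not tested. Each run holds the 250 bases before the RefSeq transcription start in GRCh38.p14, 5′ to 3′ on the gene's strand, with CG dinucleotides in capitals. The run of *LCP1* is chr13:46182178-46182427 on the minus strand, that of *PLS1* is chr3:142596143-142596392 on the plus strand, and that of *PLS3* is chrX:115560924-115561173 on the plus strand. On the minus strand the annotated *LCP1* gene starts at 46211871, so its run lies inside the gene. *LCP1* has 7 annotated transcripts in GENCODE v29, and which start these cells used was not tested.
LCP1: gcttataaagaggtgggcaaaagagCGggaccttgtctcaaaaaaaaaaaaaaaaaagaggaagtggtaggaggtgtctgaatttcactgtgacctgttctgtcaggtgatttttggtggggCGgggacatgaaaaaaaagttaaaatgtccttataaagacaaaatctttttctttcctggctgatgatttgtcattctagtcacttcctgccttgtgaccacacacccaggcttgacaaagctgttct
PLS1: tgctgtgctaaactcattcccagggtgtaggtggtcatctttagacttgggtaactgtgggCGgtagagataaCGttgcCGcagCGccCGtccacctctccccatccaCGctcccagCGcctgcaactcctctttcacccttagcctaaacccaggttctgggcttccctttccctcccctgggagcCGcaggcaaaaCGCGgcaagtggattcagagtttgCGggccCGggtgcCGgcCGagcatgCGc
PLS3: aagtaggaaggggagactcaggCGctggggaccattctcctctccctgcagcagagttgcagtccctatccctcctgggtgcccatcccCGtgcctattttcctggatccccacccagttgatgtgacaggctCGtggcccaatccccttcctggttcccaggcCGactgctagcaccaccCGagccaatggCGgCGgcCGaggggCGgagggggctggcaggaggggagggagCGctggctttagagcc

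The *LCP1* run held 2 CG dinucleotides and had a GC content of 41.2%. *PLS1* held 15 CG at 60.8% GC and *PLS3* held 10 CG at 65.2% GC. The medians over 27305 promoters of this length were 11 CG and 58.0% GC. The letters TATAAA, searched on both strands, were found in *LCP1* only among the 8 members with an entry, at 247 and 97 bases before the start, and in 11.1% of all promoters. The other members with an entry held 5 CG (*MSN*), 25 (*ACTN1*), 28 (*EZR*), 28 (*CFL1*) and 40 (*ACTN4*). Like that of *LCP1*, the runs of *EZR* and *CFL1* lie inside their annotated genes, and that of *ACTN1* lies partly inside. *FSCN1* and *VIL1* had no entry. A match of letters describes the sequence and is not evidence of a working element.

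Paralogs that share long identical stretches can share reads, so the coding sequences of GENCODE v29 were compared within each family. The longest run of identical bases was 73 bases between *ACTN1* and *ACTN4*, 32 between *EZR* and *MSN*, 26 between *PLS1* and *PLS3*, 23 between *LCP1* and *PLS1* and 20 between *LCP1* and *PLS3*. The runs between the members are printed with up to 20 flanking bases, and capitals mark the identical run.
ACTN1: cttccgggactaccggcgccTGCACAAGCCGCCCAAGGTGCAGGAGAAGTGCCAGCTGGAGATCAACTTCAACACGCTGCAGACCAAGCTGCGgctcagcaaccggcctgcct
ACTN4: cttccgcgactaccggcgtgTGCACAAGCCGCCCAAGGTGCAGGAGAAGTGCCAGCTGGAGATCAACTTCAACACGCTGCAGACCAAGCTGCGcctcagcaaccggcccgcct
EZR: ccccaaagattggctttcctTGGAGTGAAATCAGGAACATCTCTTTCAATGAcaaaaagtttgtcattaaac
MSN: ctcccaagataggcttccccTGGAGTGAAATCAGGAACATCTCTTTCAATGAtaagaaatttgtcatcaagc
LCP1: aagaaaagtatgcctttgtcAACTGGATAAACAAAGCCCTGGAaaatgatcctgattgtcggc
PLS1: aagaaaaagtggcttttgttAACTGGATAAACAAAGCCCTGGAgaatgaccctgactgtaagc
PLS1: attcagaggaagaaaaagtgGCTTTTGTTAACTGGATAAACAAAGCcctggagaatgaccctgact
PLS3: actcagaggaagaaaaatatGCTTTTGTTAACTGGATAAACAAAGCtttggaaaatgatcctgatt
LCP1: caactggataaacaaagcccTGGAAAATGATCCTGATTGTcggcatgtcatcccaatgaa
PLS3: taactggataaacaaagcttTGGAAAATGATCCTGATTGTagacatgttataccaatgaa

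Over the whole aligned coding sequence, identity was 82.1% for *ACTN1* and *ACTN4*, 74.7% for *EZR* and *MSN*, 74.5% for *LCP1* and *PLS3*, 70.4% for *PLS1* and *PLS3* and 69.4% for *LCP1* and *PLS1*. How the authors' counting treated reads within them is not given in the sources used here. The counts were whole in all 6 libraries for 7 members, and *ACTN4*, *EZR* and *VIL1* had a non-whole value in every library.

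Levels were compared between members as CPM per kilobase of the exon union (CPM/kb). In NC, *MSN* was the highest of the 10 genes at 271 ± 10.3 CPM/kb (SD, n = 3). *CFL1* followed at 199.7 ± 3.34, *EZR* at 188 ± 3.90 and *ACTN4* at 149 ± 6.81 CPM/kb. The middle of the order was held by *PLS3* (80.6 ± 0.681), *ACTN1* (29.6 ± 0.710) and *PLS1* (22.7 ± 0.854), and the lowest were *FSCN1* (7.17 ± 0.603), *VIL1* (3.96 ± 0.924) and *LCP1* (1.65 ± 0.372 CPM/kb). The order in PON1-OE was the same. Neighbours in the order did not overlap in range in either group, although in PON1-OE the lowest *VIL1* library (3.32 CPM/kb) was barely above the highest *LCP1* library (3.23 CPM/kb). The 10 genes thus spanned levels from 1.65 to 271 CPM/kb in NC. With the length of the longest transcript in place of the exon union, *CFL1* took the first place and *MSN* the second, and the other 8 kept their places.

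**Figure D1:**
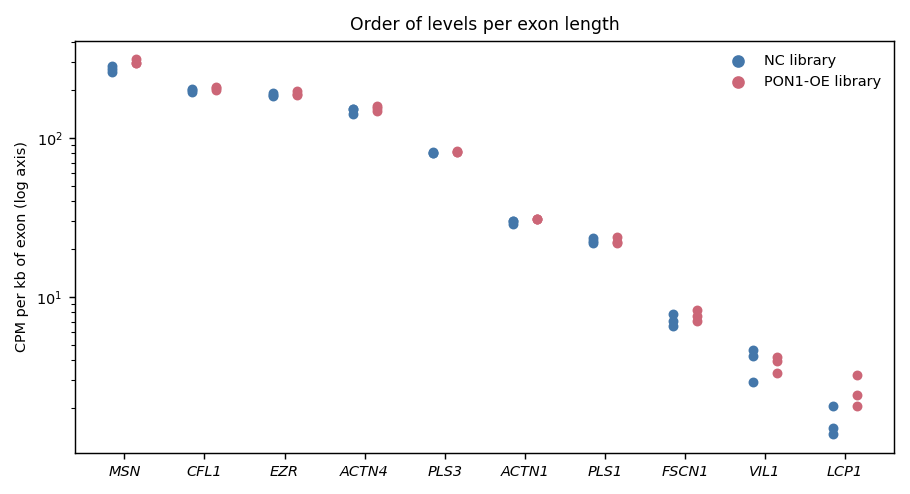
Level of the 10 members in CPM per kilobase of exon union, on a log axis, with 1 point for each of the 3 NC and 3 PON1-OE libraries. *MSN* stands at the top and *LCP1* at the bottom in both groups, and the libraries of 1 gene lie close together except for *LCP1* and *VIL1*.

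*LCP1* (ENSG00000136167, chromosome 13 from 46125920 to 46211871, minus strand, GRCh38) was low in every library and had the largest difference of the 10 genes. Its counts were 115, 190 and 130 in the NC libraries, against 171, 196 and 256 with PON1. These correspond to 6.96, 10.5 and 7.62 CPM in NC and 10.4, 12.3 and 16.3 CPM in PON1-OE. PON1-OE replicate 3 was the highest and NC replicate 1 the lowest library, and the groups overlapped, since NC replicate 2 was above PON1-OE replicate 1. The means were 8.36 ± 1.88 and 13.0 ± 3.04 CPM (SD, n = 3 each), a log2 fold change (log2FC) of 0.63 (SE 0.16, 95% interval 0.30 to 0.96), or 1.55-fold. In bulk RNA, more expressing cells and more RNA per cell cannot be told apart.

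The spread of *LCP1* within groups was wide, with a coefficient of variation of 22.5% in NC and 23.3% in PON1-OE. Counting error alone gave exact Poisson 95% intervals of 94.9 to 138 counts for NC replicate 1, 164 to 219 for NC replicate 2 and 226 to 289 for PON1-OE replicate 3. The interval of NC replicate 2 was thus apart from that of NC replicate 1. Over the 12 alternative analyses the log2FC of *LCP1* lay between 0.43, without PON1-OE replicate 3, and 0.83, without NC replicate 2. *LCP1* lay outside the genes past an adjusted p of 0.05 in the main test and within them in 3 of the 11 alternatives that gave it an adjusted p, which were no filter on low counts, without NC replicate 2 and without PON1-OE replicate 1.

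Because L-plastin is typical of blood cells, markers of leukocytes and of other cell types were read beside *LCP1*, and their part in its difference was not tested. Of 16 leukocyte markers, 4 passed the filter. *ITGAM* had 81 to 95 counts a library (mean 4.85 CPM for NC, 5.61 for PON1-OE), *ITGB2* had 10 to 21 and *CD79A* 8 to 17. *PTPRC*, *CD3E*, *CD2*, *MS4A1* and *TYROBP* had no counts in any library, and 10 of the 16 had at most 3 counts in every library. Their summed level was 213 to 233 CPM in the NC libraries, against 232 to 256 CPM with PON1, and was made up almost wholly of *CD68*, a lysosomal protein that many non-blood cells also make, with a mean of 215 CPM in NC against 235 CPM in PON1-OE. Fibroblast markers summed to 16.03 to 21.0 CPM in NC, against 16.7 to 20.2 CPM with PON1. *LUM* (mean 13.7 CPM for NC, 13.0 for PON1-OE) and *DCN* (4.27 and 5.10) made up most of this sum, and *PDGFRA*, *THY1* and *FAP* had no counts. Endothelial markers summed to 22.1 to 24.8 CPM in NC, against 25.3 to 28.03 CPM with PON1. *PECAM1* (mean 13.1 CPM for NC, 15.1 for PON1-OE) and *KDR* (9.24 and 10.9) made up most of it, with *CLDN5*, *EMCN* and *ERG* at 0. None of the 18 markers tested passed an adjusted p of 0.05 in edgeR, nor in limma-voom or in DESeq2, which gave 5 markers an adjusted p. An unadjusted p under 0.05 was reached by 2 in edgeR, *APOB* and *CD68*.

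*PLS1* (ENSG00000120756, chromosome 3 from 142596387 to 142713664) encodes the plastin of the intestinal brush border. Its libraries read 125, 116 and 119 CPM in NC and 127, 116 and 118 CPM in PON1-OE. The groups overlapped fully, with means of 120.2 ± 4.52 and 120.2 ± 6.05 CPM and a log2FC of 0.0010 (SE 0.048, 95% interval −0.099 to 0.10). *PLS3* (ENSG00000102024, chromosome X from 115561174 to 115650861), the widely expressed plastin, read 328, 329 and 333 CPM in NC and 333, 336 and 339 CPM in PON1-OE. Its coefficient of variation was 0.845% in NC and 0.880% in PON1-OE, and its groups met at NC replicate 3 and PON1-OE replicate 1. The log2FC of *PLS3* was 0.025 (SE 0.034, 95% interval −0.047 to 0.097). The intervals of both genes include 0, whereas that of *LCP1* lies above it although its libraries overlapped between groups. These intervals are not adjusted for the selection of the genes on this comparison, so they only describe the 3 plastins.

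**Figure D2:**
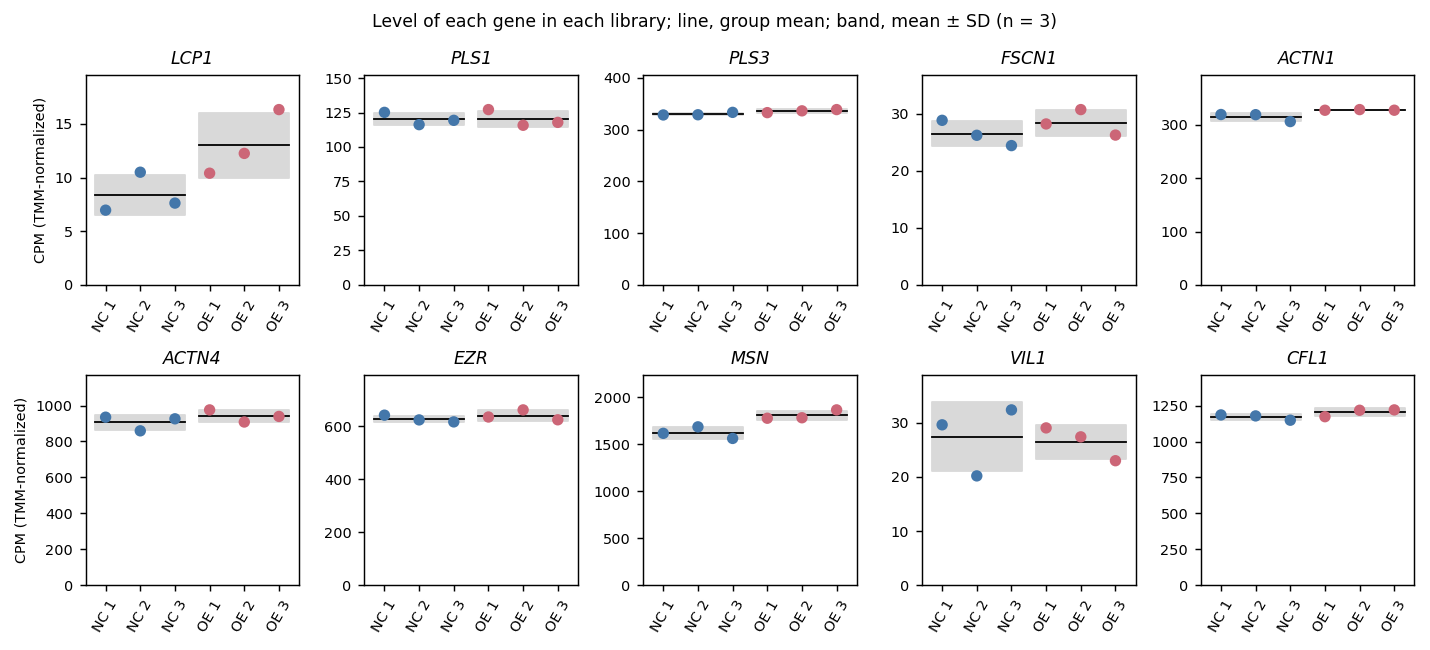
CPM of each member in the 6 libraries, 1 panel for each gene with its own axis from 0, blue points for NC and red for PON1-OE, with a line at the group mean and a band of ± SD (n = 3). For *MSN* and *ACTN1* every PON1-OE point lies above every NC point, and *LCP1* and *VIL1* show the widest spread within a group.

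Together the plastins gave mostly *PLS3* RNA. As a share of the plastin level per kilobase of exon, *PLS3* made up 76.8% ± 0.508 in NC and 76.4% ± 0.731 in PON1-OE, *PLS1* 21.6% ± 0.745 and 21.2% ± 1.04, and *LCP1* 1.58% ± 0.364 and 2.39% ± 0.544 (SD, n = 3). The ratio of *PLS3* to *LCP1* was 58.2, 38.7 and 54.0 in the NC libraries and 39.5, 33.9 and 25.6 in the PON1-OE libraries. The ratio of *PLS3* to *PLS1* stayed between 3.38 and 3.75 in all 6. *LCP1* therefore stayed the rarest plastin in both groups.

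The genes whose profile across libraries was most like that of *LCP1*, by Pearson's r of log2 CPM over the 6 libraries, were *GOT1*, the cytosolic aspartate aminotransferase (r = 0.991), *ITGA5*, the fibronectin receptor subunit (r = 0.981), and *CALCOCO2*, an autophagy receptor (r = 0.978). These r are the highest of 11958 genes over only 6 libraries, which also share group and depth, so they are a description.

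*MSN* (ENSG00000147065, chromosome X from 65588377 to 65741931), encoding moesin, read 1615, 1684 and 1561 CPM in NC and 1776, 1781 and 1865 CPM in PON1-OE. All 3 PON1-OE libraries were above all 3 NC libraries. The means were 1620 ± 61.8 and 1807 ± 49.9 CPM (SD, n = 3 each), a log2FC of 0.16 (SE 0.034, 95% interval 0.087 to 0.23), or 1.12-fold. *MSN* was also the 38th most abundant of the 11958 genes in CPM. It lay within the genes past an adjusted p of 0.05 with DESeq2 and with limma-voom as well, and in 3 of the 6 analyses that left out a library. Leaving out NC replicate 1, NC replicate 3 or PON1-OE replicate 3 each put it outside them. Calls over all genes in these analyses were 34, 11 and 18, in place of 81. The log2FC of *MSN* stayed between 0.13 and 0.19 over the 12 alternatives. All of these analyses drew on the same libraries, and *MSN* was selected on this same comparison. Its calls therefore describe it, and nothing is read from them.

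*EZR* (ENSG00000092820, chromosome 6 from 158765741 to 158819412), encoding ezrin, read 642, 624 and 617 CPM in NC and 635, 662 and 625 CPM in PON1-OE. The groups overlapped, with a log2FC of 0.030 (SE 0.034, 95% interval −0.042 to 0.10). *RDX*, encoding radixin, had a log2FC of −0.096 (SE 0.062, adjusted p = 0.611, edgeR). As shares of the family's level per kilobase, *MSN* made up 57.5% ± 0.962 in NC and 59.8% ± 1.15 in PON1-OE, and *EZR* 39.8% and 37.9%. The ratio of *MSN* to *EZR* was 1.45 ± 0.0566 in NC and 1.58 ± 0.0837 in PON1-OE (SD, n = 3). The ratio in PON1-OE replicate 2, at 1.51, lay below the highest NC ratio by a small margin, so the ratios overlapped. With the longest transcript in place of the exon union, the mean ratio was 2.03 in NC and 2.22 in PON1-OE.

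The α-actinins differed little between groups. *ACTN1* (ENSG00000072110, chromosome 14 from 68874143 to 68979440) read 319, 319 and 306 CPM in NC and 327, 329 and 327 CPM in PON1-OE. Its PON1-OE libraries were all above its NC libraries by a small margin, and its log2FC was 0.058 (SE 0.035, 95% interval −0.016 to 0.13). *ACTN4* (ENSG00000130402, chromosome 19 from 38647649 to 38731583) read 935, 859 and 926 CPM in NC and 976, 908 and 939 CPM in PON1-OE, which overlapped. Its log2FC was 0.054 (SE 0.037, 95% interval −0.024 to 0.13), and 0.055 (SE 0.037) when its counts were summed with those of *CAPN12*, which lies on the opposite strand and shares 868 exonic bases with it. *ACTN4* made up 83.4% ± 0.839 of the α-actinin level per kilobase in NC and 83.3% ± 0.524 in PON1-OE (SD, n = 3).

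*FSCN1* (ENSG00000075618, chromosome 7 from 5592823 to 5606655), encoding fascin, read 28.8, 26.2 and 24.4 CPM in NC and 28.2, 30.7 and 26.2 CPM in PON1-OE. The groups overlapped, with a log2FC of 0.10 (SE 0.082, 95% interval −0.070 to 0.27). *CFL1* (ENSG00000172757, chromosome 11 from 65823022 to 65862026), encoding cofilin-1, read 1185, 1179 and 1149 CPM in NC and 1173, 1218 and 1221 CPM in PON1-OE and also overlapped. Its log2FC was 0.040 (SE 0.032, 95% interval −0.026 to 0.11). Its paralogs *CFL2* and *DSTN* had log2FCs of 0.055 (SE 0.057, adjusted p = 0.795) and 0.032 (SE 0.039, adjusted p = 0.830) by edgeR's quasi-likelihood test. *CFL1* held 69.5% and 69.6% of the level per kilobase of these 3 genes in NC and PON1-OE.

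*VIL1* (ENSG00000127831, chromosome 2 from 218419092 to 218453295), encoding villin, was the member whose libraries disagreed most within NC. It read 29.6, 20.2 and 32.4 CPM in NC and 29.04, 27.4 and 23.0 CPM in PON1-OE. NC replicate 2 was the lowest and NC replicate 3 the highest of all 6 libraries, so that both extremes were in NC. The log2FC was −0.044 (SE 0.12, 95% interval −0.30 to 0.21), and leaving out single libraries moved it from −0.23, without NC replicate 2, to 0.095, without NC replicate 3. The Poisson intervals of these 2 libraries, 329 to 404 and 507 to 600.03 counts, did not meet.

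*VIL1* shares 3045 exonic bases with *USP37*, a deubiquitinase gene on the opposite strand. *USP37* read 18.9, 23.7 and 15.9 CPM in NC and 17.1, 16.4 and 20.4 CPM in PON1-OE. It was highest where *VIL1* was lowest, in NC replicate 2, and lowest where *VIL1* was highest, in NC replicate 3. Summed, the counts of the 2 genes gave 48.5, 43.8 and 48.3 CPM in NC and 46.2, 43.8 and 43.4 CPM in PON1-OE. The sum had a coefficient of variation of 5.61% in NC and 3.35% in PON1-OE, against 23.3% and 11.8% for *VIL1* alone, and a log2FC of −0.075 (SE 0.064, 95% interval −0.21 to 0.057). All 6 values of *VIL1* were non-whole in the deposited table. Whether the counting used strand is not given in the sources used here, and the part of the overlap in the spread was not tested.

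**Figure D3:**
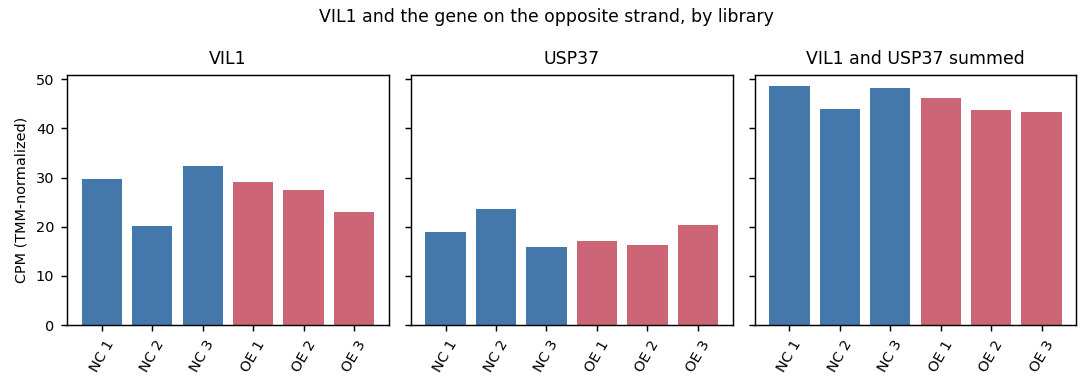
Bars of the CPM of *VIL1*, of *USP37* and of their sum, 1 bar for each of the 3 NC (blue) and 3 PON1-OE (red) libraries, on a linear axis from 0. In NC, *USP37* is highest where *VIL1* is lowest, and the sum stays between 43.4 and 48.5 CPM in all 6 libraries.

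Among the 11958 genes, 81 (0.677%) passed an adjusted p under 0.05, of which 60 (0.502%) were higher and 21 (0.176%) lower in PON1-OE. Of the 10 members 1 was among them, *MSN*, among the higher genes. An unadjusted p under 0.05 was reached by 1325 genes (11.1%), 707 higher (5.91%) and 618 lower (5.17%), and by 2 members, *LCP1* and *MSN*, both higher. PON1-OE and NC libraries were fully apart for 1921 genes (16.1%), 995 of them higher in PON1-OE (8.32%), and for 2 members, *ACTN1* and *MSN*. Only 6 genes (0.0502%) passed both the adjusted p and a 1.5-fold change, and none of the members was among them. Because the members were selected on the same comparison, these counts describe them, and nothing is read from them. The members' median log2FC was 0.047, with 9 above 0 and 1 below. Over all genes tested the median was −0.0025, with 5863 above 0 and 6095 below.

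**Figure D4:**
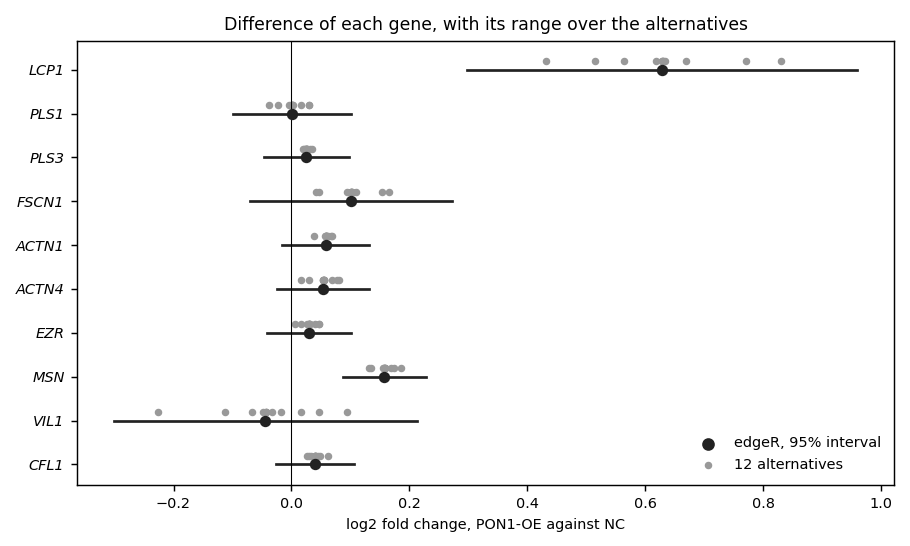
log2FC of PON1-OE against NC with its 95% interval (black) for each of the 10 members from the edgeR fit over 11958 genes, and the values from the 12 alternatives (grey points). *LCP1* lies at 0.63 and *MSN* at 0.16, and the intervals of the other 8 include 0. The intervals are not adjusted for the selection of the genes on this comparison.

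The other genes of the actin cytoskeleton were taken by role from a list of 166 genes, of which 138 were tested. This list was also chosen with earlier results of these data known, so its counts and medians describe it, and nothing is read from them. Of the 138, 3 (2.17%, beside 0.677% of all genes tested) passed an adjusted p under 0.05. All of them were higher in PON1-OE and all were crosslinkers or bundlers. *FLNA*, encoding filamin A, which joins filaments at wide angles, read 4808, 4881 and 4676 CPM in NC and 5318, 5365 and 5407 CPM in PON1-OE. Its log2FC was 0.16 (SE 0.028, adjusted p = 0.00795, edgeR's quasi-likelihood test), and all PON1-OE libraries were above all NC libraries. *BAIAP2L1*, encoding a membrane-curving protein that binds actin, read 248, 251 and 248 against 275, 281 and 279 CPM, with a log2FC of 0.16 (SE 0.036, adjusted p = 0.0377). Leaving out NC replicate 3 or PON1-OE replicate 3 (11 and 18 calls over all genes) ended the calls of both *FLNA* and *BAIAP2L1*. Leaving out NC replicate 1, NC replicate 2 or PON1-OE replicate 1 (34, 89 and 44 calls over all genes) also ended that of *BAIAP2L1*. No listed gene passed the 1.5-fold threshold beside an adjusted p. At an unadjusted p under 0.05, 34 of the 138 passed (24.6%, beside 11.1% of all genes tested). Of these, 27 were higher (19.6%, beside 5.91%) and 7 lower (5.07%, beside 5.17%). The groups did not overlap for 34 (24.6%, beside 16.1%), 31 of them higher (22.5%, beside 8.32%).

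By role, the 27 further crosslinkers tested held these 3 calls (11.1%, beside 0.677% of all genes tested) and had a median log2FC of −0.00020. At an unadjusted p under 0.05, 11 of the 27 passed (40.7%, beside 11.1% of all genes tested), 8 higher and 3 lower. The 2 actin isoforms tested were *ACTB* (0.075, SE 0.028, adjusted p = 0.297) and *ACTG1* (0.024). The 10 myosin II and tropomyosin genes tested had a median of 0.077 and 6 with an unadjusted p under 0.05, all higher, but none with an adjusted one in edgeR, while DESeq2 called 1, *TPM4* (higher, named after its value was seen). *TPM1*, a tropomyosin that lines filaments, had the largest of them at 0.13 (SE 0.043, adjusted p = 0.211 in edgeR), and *MYH10*, a non-muscle myosin II heavy chain, the smallest at −0.0064. Among 11 partners of the α-actinins at adhesions the median was 0.068. An unadjusted p under 0.05 was reached by 5 (45.5%, beside 11.1% of all genes tested), all higher (beside 5.91%). *PDLIM7*, an adaptor that binds α-actinin, read 24.6, 21.6 and 21.5 CPM in NC and 26.8, 27.95 and 26.6 CPM in PON1-OE (log2FC 0.26, SE 0.079, adjusted p = 0.171), and none of the 11 passed the adjusted threshold in edgeR, nor any of the 8 to which DESeq2 gave an adjusted p.

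Among the 6 villin and gelsolin family genes tested, *SCIN*, encoding the severing protein adseverin, read 77.1, 67.6 and 73.6 CPM in NC and 59.7, 66.8 and 56.8 CPM in PON1-OE. The PON1-OE values were all lower than the NC values, with a log2FC of −0.25 (SE 0.064, adjusted p = 0.0882 in edgeR), and its adjusted p ranged from 0.0103 to 0.397 over 12 alternatives, of which 4 were under 0.05. The 14 ezrin, radixin and moesin partners had a median of −0.061, from *MYLIP* (−0.34, SE 0.31), a ubiquitin ligase with a FERM domain, to *PODXL* (0.17, adjusted p = 0.490 by edgeR), a membrane ligand of ezrin. The 23 genes of the cofilin cycle and of monomer binding had a median of 0.055, and *PFN1*, encoding profilin, had a log2FC of 0.047. The 37 nucleator and capping genes had a median of 0.029, and the 8 brush border partners of villin −0.039, with *SLC9A3*, the sodium–hydrogen exchanger held by ezrin, at −0.22 (SE 0.084, adjusted p = 0.294 by edgeR). In edgeR none of these 4 groups and none of the villin and gelsolin family had a gene past the adjusted threshold. At an unadjusted p under 0.05 there were 2 villin and gelsolin genes (33.3%) and 3 ezrin, radixin and moesin partners (21.4%). The same held for 3 genes of the cofilin cycle (13.0%), 2 nucleator and capping genes (5.41%) and 1 brush border gene (12.5%), beside 11.1% of all genes tested. DESeq2 called *SCIN*, lower, and *TMSB10*, a monomer binder, higher (named after its value was seen). Over the whole list the median log2FC was 0.035, with 82 genes above 0 and 56 below, beside 5863 and 6095 of all genes tested. In the main edgeR fit no tested gene of the list differed by more than 1.5-fold. The largest was *TAGLN* at 1.498-fold (named after its value was seen). In some alternatives listed genes with few counts went past 1.5-fold. Examples are *FMNL1* (log2FC −1.12 without PON1-OE replicate 1) and *CORO1A* (1.13 without NC replicate 2).

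**Figure D5:**
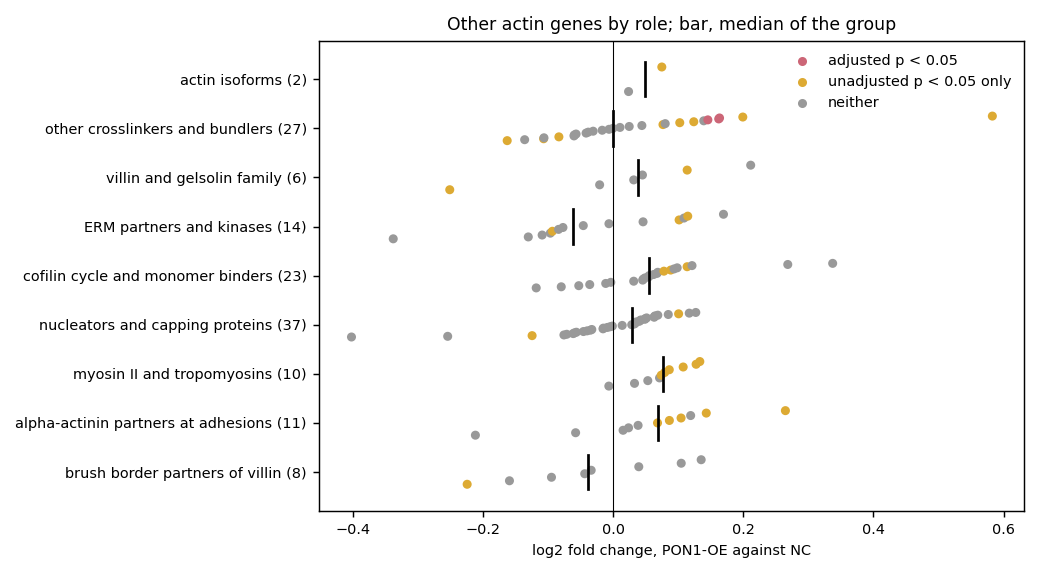
log2FC of PON1-OE against NC for the 138 tested genes of the actin list, 1 point a gene, grouped by role, with a bar at the group's median. Red points passed an adjusted p under 0.05 and yellow points an unadjusted p only, and *FLNA* and *BAIAP2L1* are among the red points.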

How the data were processed

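Estimated counts per gene from 6 poly(A) RNA-seq libraries (NEBNext Ultra kit) were analyzed, 3 PON1-OE and 3 NC. Per the labels, the submitters' processing notes name Bowtie2 2.2.8, HISAT2, StringTie 1.3.1 and DESeq2; the step each took, the build, the annotation and the strand setting are not given in the sources used here. The deposited values are expected counts that the authors did not normalize, and 10.5% of them were not whole. They were rounded, as the design set for values that are not whole. Identifiers matched GENCODE v29 (GRCh38) for 20126 of 20381 genes, and 649 had no symbol.

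In R 4.3.3, 11958 genes passed filterByExpr. PON1-OE was compared with NC after TMM scaling by the quasi-likelihood test of edgeR 4.0.16, with no covariate and with Benjamini-Hochberg adjustment over all genes tested and a threshold of 0.05. The test was checked on simulated counts. The alternatives were relative log expression size factors, other filters, a replicate block, each library left out, DESeq2 1.42.0, limma 3.58.1 voom on unrounded counts, a 1.5-fold threshold and unadjusted p-values. Sums of *VIL1* with *USP37* and of *ACTN4* with *CAPN12* were added after seeing the data. Intervals of counts are exact Poisson and cover counting error only. The members and gene lists were chosen with earlier results of these data known. The genes named are the 10 members, their paralogs, listed genes past the threshold and, for each role group without one, genes chosen from the highest level and the largest and smallest log2FC. Promoters came from RefSeq. Some listed genes that the rule names are not reported here. Pairs of libraries of 1 group differed by more than sampling noise (chi-square per degree of freedom 2.11 to 4.11), so all were kept as separate.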

Additional observations from a re-analysis of the deposited data

How the results depend on the processing

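The number of members past the adjusted threshold was 1, *MSN*, and became 2 without a filter on low counts, 0 with a replicate block, 0 with the 1.5-fold threshold added, 2 by an unadjusted p, and 0 to 2 when single libraries were left out. The actin list count of 3 became 5 without the filter, 0 with a replicate block, 6 with DESeq2, 0 with the 1.5-fold threshold, 34 by an unadjusted p and 0 to 5 with a library left out. Over all genes the 81 became 177 without the filter, 40 with a replicate block, 122 with DESeq2, 6 with the 1.5-fold threshold, 1325 by an unadjusted p and 11, without NC replicate 3, to 103 with a library left out. The libraries share only a number: deviations of same-numbered libraries from their group means correlated at 0.030, −0.057 and −0.015, and the replicate block took *MSN*, *FLNA* and *BAIAP2L1* out of the calls. The signs of the log2FC of *VIL1* and *PLS1* turned in some alternatives, and neither was past the adjusted threshold in any of them. The median log2FC of the actin list stayed between 0.024 and 0.043 in the alternatives run, and the median of all genes stayed within 0.003 of 0. Levels per kilobase depend on the length used: with the longest transcript, *CFL1* stood above *MSN*, and *CFL1* held 87.0013% of the cofilin family in NC in place of 69.5%. Other shares in NC moved too, to 64.5% in place of 57.5% for *MSN* and to 73.0% in place of 83.4% for *ACTN4*.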
